A study of Saccharomyces cerevisiae with 6 samples.

Results

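Translation of an mRNA starts when the initiator tRNA is brought to its start codon, and the factors examined here run that step. The RNAs described are those of the yeast genes for eIF2, eIF2B, eIF5 and eIF5B. They were chosen by locus tag from a list of 10 genes: SUI2 (YJR007W), SUI3 (YPL237W) and GCD11 (YER025W) for eIF2, GCN3 (YKR026C), GCD1 (YOR260W), GCD2 (YGR083C), GCD6 (YDR211W) and GCD7 (YLR291C) for eIF2B, TIF5 (YPR041W) for eIF5 and FUN12 (YAL035W) for eIF5B. The table used here held 15 RNAs of 9 of these genes, out of 6962 RNAs of 4134 genes. GCD2 is not analysed here. All 15 were tested, since no filter on low values was applied.

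The study offered a pool of capped RNAs, transcribed by T7 RNA polymerase from a design based on yeast sequence, to a cell-free translation extract of Saccharomyces cerevisiae. Each RNA carries the leader of a gene, the stretch upstream of its start codon. Libraries of 3 kinds were made: 3 of the 80S fraction of a sucrose gradient, which holds RNA bound by a complete ribosome, 2 of the gradient fraction called untranslated, and 1 of the input RNA. The strain behind the extract is not named in the labels, and nothing says whether replicates were separate incubations, so the p-values reflect only how far these libraries differ, which may be technical. The 80S and untranslated RNA also went through a biotin pulldown that the label of the input does not list. The labels give the same capping and the same incubation in extract for all 6 libraries, the input included.

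In the cell, eIF2 binds GTP and the initiator tRNA and delivers them to the small ribosomal subunit. eIF5 stimulates GTP hydrolysis once the start codon is met, and eIF2B recharges eIF2 with GTP for the next round. When eIF2 is phosphorylated it blocks eIF2B, which lowers initiation in general and, in yeast, raises translation of the transcription factor GCN4. eIF5B, another GTPase, promotes joining of the large subunit, the step that yields an 80S ribosome.

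Leaders were read from the reference genome R64 (RefSeq) as the number of bases in each RNA's name, counted back from the annotated start codon. All coordinates are on R64, and the RNAs that were synthesised may differ from the reference. The 15 leaders were 23 to 107 nucleotides (nt) long. The base just upstream of the leader was C or T in 15 of 15, and the first base was A in 12 and G in 3. Over all leaders with a sequence, the upstream base was C or T in 96.2% and the first base A in 78.3%, so these counts were near the background. None contained an ATG on the strand of the RNA (0 of 15), against 14.2% of the 6860 leaders that received a sequence. The stretch before the start codon is shown because it sets the context in which the start codon is read. It is given below with the start codon in capitals, once per gene, since leaders of 1 gene end alike. The GCD6 line is longer than the 23 nt leader of that gene, which lacks the first bases shown.

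SUI2: cacgcaccttctataatacaccaaataATG

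SUI3: accagtcatataataagcacgcacgagATG

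GCD11: cgttaacatcgcgcattagaggtagacATG

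GCN3: tacgtataccagaaatcgagaggaaggATG

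GCD1: atagctcccccccctattgtcgtagtcATG

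GCD6: gaatagaaaccactcataaggcaaaagATG

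GCD7: aactttcgaacttttgcccaacataagATG

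TIF5: gcataaacacacgttcactggtacaagATG

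FUN12: aatcaggaacatcagataagtgaaagATG

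The third base before the start codon, where yeast favours A, was A in 6 of the 9 genes and G in SUI3, GCD11 and GCD1. Over all leaders it was A in 62.6%, and A or G in 82.2%. Of the genes with G there, SUI3 and GCD1 went in the opposite direction to GCD11 between the fractions, as described next. A link between this base and the fractions was not tested.

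**Figure D1:**
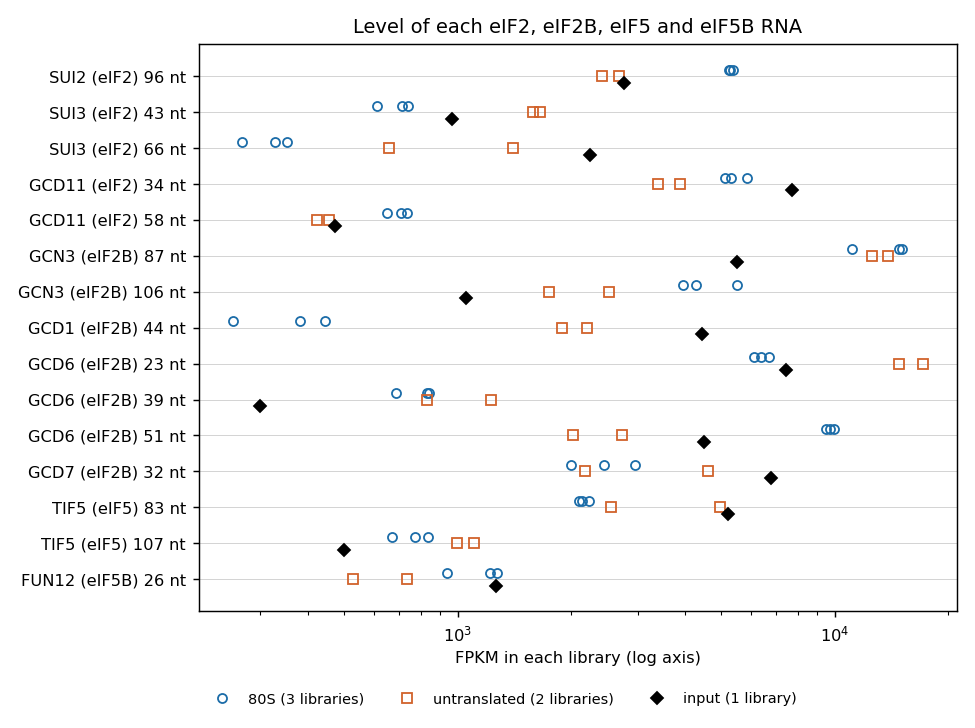
FPKM of each of the 15 RNAs in every library on a log axis, with circles for the 3 libraries of 80S RNA, squares for the 2 of untranslated RNA and a diamond for the input. GCD6 with 51 nt and SUI2 show 80S circles to the right of the squares, and GCD1, both SUI3 RNAs and GCD6 with 23 nt show them to the left.

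Abundance was deposited as FPKM, a read density per length of RNA and per library. It is relative to the rest of each library, so all changes are relative ones. The number of reads behind each value is unknown. The 80S libraries correlated with each other at r = 0.972 to 0.980 over all RNAs on the log2 scale, and the untranslated pair at 0.926. In the input, GCD11 with 34 nt had the highest level among the 15 (7720 FPKM) and GCD6 with 39 nt the lowest (299). In 80S RNA the mean over the 3 libraries ran from 316 FPKM for SUI3 with 66 nt (SD 43.3) to 13678 FPKM for GCN3 with 87 nt (SD 2196). Between 80S and untranslated RNA, 6 of the 15 rose towards 80S and 5 fell, taking an adjusted p under 0.05 as the threshold (limma on log2(FPKM + 1) over all 6962 RNAs, Benjamini-Hochberg). Over all RNAs, 38.6% were higher and 31.8% lower, so these shares were near the background. The 80S and untranslated libraries did not overlap for 12 of the 15 RNAs, against 79.5% of all RNAs. The median log2 change of the 15 was -0.37, and that of all RNAs 0.18.

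eIF2 is a trimer, and the RNAs of its subunits were split. SUI2, the alpha subunit that carries the regulatory phosphorylation site, and GCD11, the gamma subunit that binds GTP and the tRNA, were higher in 80S RNA, while SUI3, the beta subunit, was lower. Of the 5 RNAs 3 were higher and 2 lower, where 38.6% of all RNAs were higher and 31.8% lower. The 96 nt leader of SUI2 (chrX:450924-451019, plus strand) stood at 5274, 5253 and 5377 FPKM in the 80S libraries 1, 2 and 3, at 2678 and 2412 in untranslated libraries 1 and 2, and at 2762 in the input. The 80S libraries were all higher than the others, and the untranslated libraries lay close to the input. The log2 change of SUI2 between 80S and untranslated RNA was 1.06 (SE 0.17, limma, adjusted p = 0.000625), a 2.09-fold rise.

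SUI3 had leaders of 43 nt (chrXVI:100453-100495, plus strand) and 66 nt (chrXVI:100430-100495). The 43 nt RNA stood at 737, 611 and 714 FPKM in 80S, 1655 and 1589 in untranslated RNA and 968 in the input. The 66 nt RNA stood at 328, 353 and 268 in 80S, 1399 and 659 in untranslated RNA and 2246 in the input. Both RNAs had every 80S library under both untranslated libraries, and the 66 nt RNA differed between the untranslated replicates. The fall was 2.37-fold for 43 nt (log2 -1.24, SE 0.21, limma, adjusted p = 0.000907) and 3.05-fold for 66 nt (log2 -1.61, SE 0.34, limma, adjusted p = 0.00289). Without untranslated replicate 1 the latter was -1.06. Leaving out an untranslated replicate leaves 1 such library, which shows no spread of its own. For those fits only the log2 change is given here.

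GCD11 had leaders of 34 nt (chrV:205217-205250, plus strand) and 58 nt (chrV:205193-205250). The 34 nt RNA stood at 5848, 5126 and 5295 FPKM in 80S, 3882 and 3392 in untranslated RNA and 7720 in the input. The 58 nt RNA stood at 735, 648 and 708 in 80S, 423 and 455 in untranslated RNA and 472 in the input. In both the 80S libraries lay above the untranslated ones, by 1.49-fold for 34 nt (log2 0.58, SE 0.17, limma, adjusted p = 0.0149) and 1.59-fold for 58 nt (log2 0.67, SE 0.22, limma, adjusted p = 0.0255). The call for 34 nt was lost without 80S replicate 1 (log2 0.52, limma, adjusted p = 0.0722). Without untranslated replicate 2 its log2 change was 0.48. The call for 58 nt was lost without 80S replicate 1 (0.63, limma, adjusted p = 0.0856) or 80S replicate 3 (0.65, 0.0854). It was also lost after rescaling the libraries by median ratios (0.52, 0.0685). Without untranslated replicate 1 the log2 change of 58 nt was 0.61.

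eIF2B exchanges GDP for GTP on eIF2. Its regulatory subcomplex contains GCN3, GCD2 and GCD7, and its catalytic subcomplex contains GCD1 and GCD6, the latter with the exchange activity. Of its 7 RNAs, 2 rose towards 80S, 2 fell and 3 stayed short of the threshold, where 38.6% of all RNAs rose and 31.8% fell. They included the highest and the lowest of the 15, GCD6 with 51 nt and GCD1.

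GCN3, the alpha subunit, which cells can lack but need to sense phosphorylated eIF2, had leaders of 87 nt (chrXI:489656-489742, minus strand) and 106 nt (chrXI:489656-489761). The 106 nt RNA stood at 3963, 5507 and 4296 FPKM in 80S, 1744 and 2528 in untranslated RNA and 1053 in the input. The 87 nt RNA stood at 11145, 15043 and 14846 in 80S, 13812 and 12522 in untranslated RNA and 5516 in the input. Both were lowest in the input. The fractions overlapped for 87 nt, but not for 106 nt, where 80S was higher. The 106 nt RNA rose 2.16-fold between untranslated and 80S RNA (log2 1.11, SE 0.24, limma, adjusted p = 0.00309). The 87 nt RNA changed by a log2 of 0.04 (95% interval -0.38 to 0.47, limma, adjusted p = 0.843), and its sign turned after rescaling by median ratios (-0.10). It also turned without 80S replicate 2 or 3 or untranslated replicate 2 (-0.03, -0.02 and -0.03).

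GCD1, the gamma subunit, had the lowest 80S to untranslated ratio of the 15. Its 44 nt RNA (chrXV:813940-813983, plus strand) stood at 382, 254 and 446 FPKM in 80S, 1895 and 2202 in untranslated RNA and 4441 in the input. The 3 kinds of library did not overlap, with the input highest and 80S lowest. The fall from untranslated to 80S RNA was 5.80-fold (log2 -2.54, SE 0.28, limma, adjusted p = 9.19e-05), which placed it at the percentile 4.61 of all RNAs. Its leader was the richest in G and C of the 15 (52.3%, against a median of 34.7% over all leaders) and held an uninterrupted run of 8 C, 13 nt before the start codon. Such a run of 8 or more C occurred in 4 of the 6860 leaders (0.0583%). The next richest in G and C were SUI3 with 43 nt (48.8%), lower in 80S, and GCD11 with 58 nt (48.3%), higher in 80S. A link between the bases of a leader and the fractions was not tested. The run of C is shown in capitals, at chrXV:813954-813979.

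GCD1: ttgatagctCCCCCCCCtattgtcgt

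GCD6, the epsilon subunit, had 3 RNAs, and they went in different directions. Its leaders of 23 nt (chrIV:884704-884726, plus strand), 39 nt (chrIV:884688-884726) and 51 nt (chrIV:884676-884726) end at the same start codon. The 51 nt RNA stood at 9947, 9732 and 9503 FPKM in 80S, 2021 and 2726 in untranslated RNA and 4510 in the input. The 23 nt RNA stood at 6125, 6391 and 6692 in 80S, 17142 and 14805 in untranslated RNA and 7440 in the input. The 39 nt RNA was scarce, at 686, 839 and 830 in 80S, 828 and 1229 in untranslated RNA and 299 in the input. The 80S libraries were above both untranslated libraries for 51 nt, below both for 23 nt and overlapping for 39 nt. The 51 nt RNA rose 4.14-fold (log2 2.05, SE 0.19, limma, adjusted p = 3.66e-05), at the percentile 92.8 of all RNAs. The 23 nt RNA fell 2.49-fold (log2 -1.32, SE 0.16, limma, adjusted p = 0.000150). The 39 nt RNA did not pass (log2 -0.37, 95% interval -0.95 to 0.22, limma, adjusted p = 0.225).

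GCD7, the beta subunit, had 1 RNA, with a leader of 32 nt (chrXII:719463-719494, minus strand). It stood at 2446, 1999 and 2956 FPKM in 80S, 4607 and 2170 in untranslated RNA and 6773 in the input. The untranslated replicates differed from each other by more than the 80S libraries did, and the fractions overlapped. The log2 change was -0.38 (95% interval -1.12 to 0.37, limma, adjusted p = 0.322). It was 0.17 without untranslated replicate 1 and -0.92 without replicate 2, with 1 untranslated library left in each of these fits.

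TIF5, the single gene of eIF5, had leaders of 83 nt (chrXVI:648621-648703, plus strand) and 107 nt (chrXVI:648597-648703). The 83 nt RNA stood at 2096, 2135 and 2224 FPKM in 80S, 4961 and 2554 in untranslated RNA and 5221 in the input. The 107 nt RNA stood at 672, 771 and 834 in 80S, 994 and 1105 in untranslated RNA and 501 in the input. Both lay lower in every 80S library than in either untranslated library. The 83 nt RNA passed as lower by 1.65-fold (log2 -0.73, SE 0.27, limma, adjusted p = 0.0421). That call was lost without 80S replicate 1, 2 or 3 (log2 -0.71, -0.72 and -0.75; limma, adjusted p = 0.100, 0.0828 and 0.0741) and without untranslated replicate 1 (-0.25, 0.325), and the value was -1.21 without untranslated replicate 2 (0.000236). The 107 nt RNA did not pass (log2 -0.47, 95% interval -0.98 to 0.03, limma, adjusted p = 0.0850), although it did after rescaling by median ratios (-0.62, 0.0392).

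Both TIF5 leaders hold a run of 8 T followed, after a pair of C, by a run of 11 A that ends 39 nt before the start codon. Runs of 8 or more T occurred in 1.03% of all leaders and runs of 11 or more A in 0.510%. In the fold predicted for the 83 nt leader alone, 8 pairs joined both runs. They are shown in capitals, at chrXVI:648640-648669.

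TIF5: cttcTTTTTTTTccAAAAAAAAAAActcct

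FUN12, which encodes eIF5B, had 1 RNA with a leader of 26 nt (chrI:76401-76426, plus strand). It stood at 1268, 1218 and 936 FPKM in 80S, 528 and 733 in untranslated RNA and 1265 in the input. The 80S libraries were above the untranslated ones, and 2 of these 3 lay next to the input. The rise was 1.82-fold (log2 0.86, SE 0.25, limma, adjusted p = 0.0142). The call was lost without 80S replicate 1 (log2 0.78, limma, adjusted p = 0.0560). Without untranslated replicate 1 the log2 change was 0.63.

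**Figure D2:**
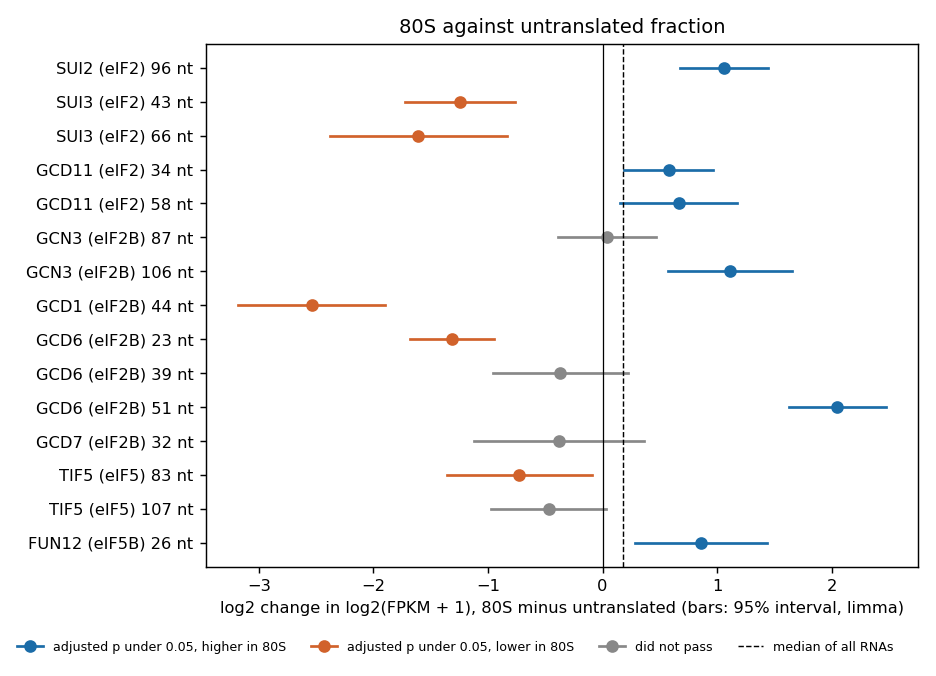
Log2 change of each RNA between 80S and untranslated libraries, with points for the limma estimate, bars for its 95% interval and a dashed line at the median of all RNAs (0.18). The RNAs span from -2.54 for GCD1 to 2.05 for GCD6 with 51 nt, and those of eIF2 and eIF2B lie on both sides of 0.

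Leaders of 1 gene were compared within each library, as the level of the longer RNA minus that of the shorter on the log2 scale, so that library scaling cancels. The 5 genes with several RNAs gave 7 pairs, of which 4 differed between 80S and untranslated RNA at an adjusted p under 0.05, against 68.9% of all 3811 pairs of the pool. In all 4 the longer leader had the higher 80S to untranslated ratio, while over the pool 34.2% of pairs passed in this direction and 34.8% in the other. The 4 were the 3 pairs of GCD6, which share RNAs and are not independent, and the pair of GCN3.

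For GCD6 the ratio of the 51 nt RNA was 10.3-fold that of the 23 nt RNA (log2 3.37, SE 0.24, limma, adjusted p = 2.71e-05). The 51 nt RNA made up 59.4%, 57.4% and 55.8% of the gene's summed FPKM in the 80S libraries, 10.1% and 14.5% in the untranslated ones and 36.8% in the input. The 23 nt RNA made up 36.6%, 37.7% and 39.3%, then 85.7% and 78.9%, and 60.7%. Their order was thus inverted between the fractions. The 51 nt RNA also exceeded the 39 nt RNA 5.35-fold in this ratio, with only 12 added bases (log2 2.42, SE 0.23, limma, adjusted p = 7.96e-05). The ratio of 39 nt exceeded that of 23 nt 1.93-fold (log2 0.95, SE 0.29, limma, adjusted p = 0.0203). This last call was lost without 80S replicate 2 (0.90, limma, adjusted p = 0.0698) or 80S replicate 3 (0.94, 0.0640). Without untranslated replicate 1 the log2 difference was 0.56.

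The added bases are shown with those in capitals that pair in the fold predicted for the longer leader by ViennaRNA, for the leader alone. Of the 12 bases that set the 51 nt leader of GCD6 apart, 8 paired, all of them with bases that the 23 nt leader also holds. The predicted folding energy was -9.1 kcal/mol for 51 nt and -0.4 kcal/mol for both 39 nt and 23 nt. Among the 425 leaders within 2 nt of its length, 5.65% had a lower energy than the 51 nt leader. In the last of the GCD6 lines, the capitals mark the partners in the 23 nt leader.

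GCD6 39 nt, added to 23 nt: gtgttaaaaatagaat

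GCD6 51 nt, added to 39 nt: aaaAGTGGTcTT

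GCD6 23 nt: agAAACCACTcataaggcaaaag

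GCN3 106 nt, added to 87 nt: ataCTgCTCaaaTAGTGAc

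GCD11 58 nt, added to 34 nt: aagcaaagaGgGCGGaaagAGCGt

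SUI3 66 nt, added to 43 nt: aGGaaaCTtctTGCacaTCaacc

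TIF5 107 nt, added to 83 nt: gacttacaaagacaccactacatt

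For GCN3 the 106 nt RNA made up 26.2%, 26.8% and 22.4% of the gene's FPKM in the 80S libraries, 11.2% and 16.8% in the untranslated ones and 16.0% in the input. The 80S shares were all above the others, and the ratio of 106 nt exceeded that of 87 nt 2.10-fold (log2 1.07, SE 0.27, limma, adjusted p = 0.00842). The 19 added bases lie at chrXI:489743-489761, and 11 pairs of the predicted fold involve them.

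The pairs of GCD11, SUI3 and TIF5 did not pass. For GCD11 the 58 nt leader, 24 nt longer than the other, changed the ratio by a log2 of 0.09 (95% interval -0.43 to 0.60, limma, adjusted p = 0.740), which in folds is 0.744 to 1.52. Its predicted energy was -9.1 kcal/mol, as for GCD6 with 51 nt, and that of the 34 nt leader -2.5. For SUI3 the difference was -0.36 (95% interval -1.16 to 0.43, limma, adjusted p = 0.366) and for TIF5 0.26 (-0.52 to 1.03, limma, adjusted p = 0.516). Without untranslated replicate 2 the values were -0.88 for SUI3 and 0.81 for TIF5. Both had the opposite sign without untranslated replicate 1 (0.15 and -0.30). The predicted fold of the longer TIF5 leader used none of its 24 added bases. How reads that fit several RNAs of 1 gene were assigned is not given in the sources used here, and the part of this assignment in the differences between leaders was not tested.

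**Figure D3:**
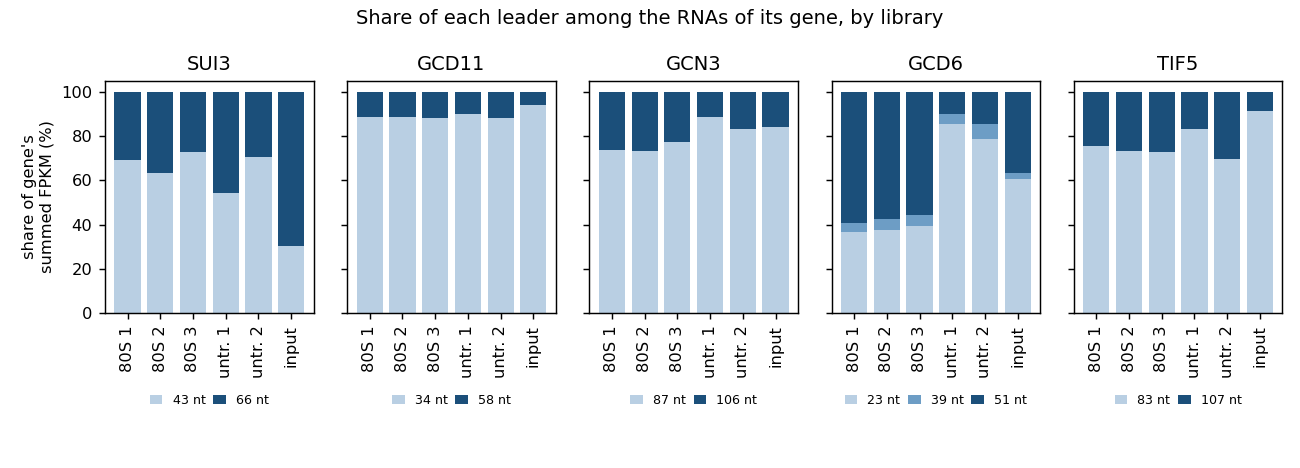
Share of each leader in the summed FPKM of its gene, in percent, for each library of the 5 genes with several RNAs, with darker bars for longer leaders. The 51 nt leader of GCD6 makes up 55.8% to 59.4% in the 80S libraries and 10.1% and 14.5% in the untranslated ones, while the shares of GCD11 differ little between these libraries.

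The summed FPKM of a gene's RNAs does not depend on which leader a read was assigned to, apart from the length each value was divided by. This sum was added after the data were seen. On it, 3 of the 9 genes were higher in 80S (SUI2, GCD11 and FUN12), against 38.3% of the 4134 genes, and 3 were lower (SUI3, GCD1 and TIF5), against 31.9%. GCD6 summed to 16758, 16962 and 17025 FPKM in 80S and 19990 and 18760 in untranslated RNA. The 80S sums lay somewhat below, by a log2 of -0.20 (SE 0.13, limma, adjusted p = 0.211), although 2 of its 3 RNAs had passed in opposite directions. GCN3 did not pass either (log2 0.24, SE 0.17, limma, adjusted p = 0.224), nor did GCD7.

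Against the input, the question is how much of each RNA was found in a fraction relative to the input library. By its label that library had the same incubation in extract, and no biotin pulldown is listed for it. Both comparisons use the same single input library, which was assumed to vary like the others, so a high or low input value moves both alike, and their values are only given side by side. The lowest values of that library fell on steps. Of its 95 values of at most 5 times the lowest (23.9 FPKM), 82.1% were whole multiples of it within 0.01, against 1.16% to 3.41% in the other 5 libraries. Whether 1 step is 1 read, and whether the input was scaled by length like the other libraries, was not tested. Above 5 times the lowest value the share was far smaller, though still above that of the other libraries. It pools the whole upper range, so it cannot tell how far the steps go on. There 2.91% of the input values were whole multiples, against 1.81% to 2.18% in the other libraries. All 15 RNAs lie in that range, so their input levels are given as multiples of the lowest value and not as reads. GCD6 with 39 nt was lowest of the 15 at 12.5 times that value, followed by GCD11 with 58 nt at 19.7 and TIF5 with 107 nt at 20.9. In 80S, 5 of the 15 RNAs were higher than in the input (20.1% of all RNAs) and 4 lower (33.2%). In untranslated RNA, 5 were higher (17.4% of all) and 4 lower (34.4%). After rescaling by median ratios the latter became 6 higher and 1 lower. Over all RNAs the median log2 change was -0.25 for 80S and -0.36 for untranslated RNA, so values near these are near the middle of the pool.

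Among eIF2 RNAs, SUI2 was 1.92-fold higher in 80S than in the input (log2 0.94, SE 0.21, limma, adjusted p = 0.00656) and stood at -0.12 in untranslated RNA (limma, adjusted p = 0.672). SUI3 with 66 nt was 7.13-fold lower in 80S (log2 -2.83, SE 0.43, limma, adjusted p = 0.00116). In untranslated RNA it stood at -1.23 (SE 0.45, limma, adjusted p = 0.0505). It passed there with a pseudocount of 10 (-1.22, limma, adjusted p = 0.0489) or 100 (-1.14, 0.0389) and with no trend (-1.23, 0.0447). It did not pass after rescaling by median ratios (-0.84, 0.144). The value was -1.77 without untranslated replicate 1 and -0.68 without replicate 2. SUI3 with 43 nt did not pass in either fraction (-0.50 and 0.74, limma, adjusted p = 0.144 and 0.0545). It passed as higher in untranslated RNA after rescaling by median ratios (1.13, 0.0107), with a pseudocount of 100 (0.69, 0.0473) and with no trend (0.74, 0.0375). GCD11 with 34 nt was lower in untranslated RNA (log2 -1.09, SE 0.23, limma, adjusted p = 0.00535) and did not pass in 80S (-0.51, 0.0743). GCD11 with 58 nt passed in neither (0.56 in 80S and -0.11 in untranslated RNA, limma, adjusted p = 0.122 and 0.782), although it passed in 80S after rescaling by median ratios (0.80, 0.0424).

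Among eIF2B RNAs, GCD1 was 12.6-fold lower in 80S than in the input (log2 -3.66, SE 0.35, limma, adjusted p = 0.000267), at the percentile 0.575 of all RNAs. It was also 2.17-fold lower in untranslated RNA (log2 -1.12, SE 0.37, limma, adjusted p = 0.0355), a call lost after rescaling by median ratios (-0.73, 0.129). Both GCN3 RNAs were higher in both fractions than in the input. For 106 nt the 80S rise was 4.31-fold (log2 2.11, SE 0.30, limma, adjusted p = 0.000917) and the untranslated rise 1.99-fold (log2 0.99, SE 0.32, limma, adjusted p = 0.0299). Without untranslated replicate 2 the untranslated rise was a log2 of 0.73. For 87 nt they were 2.46-fold and 2.38-fold (limma, adjusted p = 0.00258 and 0.00436).

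The GCD6 RNAs again differed from each other. With 51 nt, 80S was 2.16-fold above the input (log2 1.11, SE 0.23, limma, adjusted p = 0.00501) and untranslated RNA 1.92-fold below it (log2 -0.94, SE 0.25, limma, adjusted p = 0.0141), the latter call lost after rescaling by median ratios (-0.55, 0.109). With 23 nt, untranslated RNA was 2.14-fold above it (log2 1.10, SE 0.21, limma, adjusted p = 0.00395) and 80S did not pass (-0.22, 0.385). With 39 nt both fractions were above it, 80S by 2.61-fold and untranslated RNA by 3.37-fold (limma, adjusted p = 0.00772 and 0.00400). GCD7 was 2.78-fold lower in 80S (log2 -1.48, SE 0.41, limma, adjusted p = 0.0161). In untranslated RNA it stood at -1.10 (limma, adjusted p = 0.0628), with -1.64 without untranslated replicate 1 and -0.56 without replicate 2.

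TIF5 with 83 nt was 2.43-fold lower in 80S than in the input (log2 -1.28, SE 0.35, limma, adjusted p = 0.0149). In untranslated RNA it stood at -0.55 (limma, adjusted p = 0.236), with -1.03 without untranslated replicate 1 and -0.0737 without replicate 2. TIF5 with 107 nt was 2.09-fold higher in untranslated RNA (log2 1.06, SE 0.29, limma, adjusted p = 0.0173) and did not pass in 80S (0.59, 0.103), although it did after rescaling by median ratios (0.83, 0.0392). FUN12 did not pass in 80S (log2 -0.16, 95% interval -0.89 to 0.57, limma, adjusted p = 0.685). FUN12 was 2.03-fold lower in untranslated RNA (log2 -1.02, SE 0.34, limma, adjusted p = 0.0332). This call was lost after rescaling by median ratios (-0.64, limma, adjusted p = 0.154). Without untranslated replicate 1 the log2 change was -0.79.

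**Figure D4:**
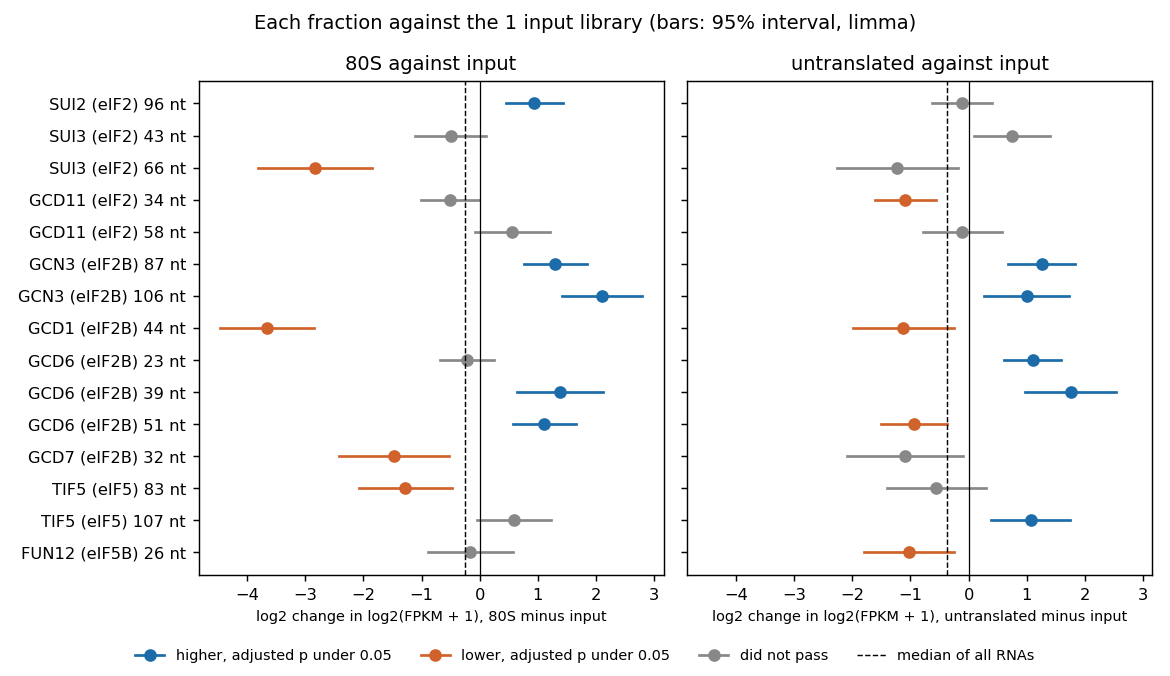
Log2 change of each RNA against the 1 input library, for 80S in the left panel and untranslated RNA in the right panel, with points for the limma estimate, bars for its 95% interval and a dashed line at the median of all RNAs (-0.25 and -0.36). Both panels share the input library, and GCD6 with 51 nt lies at 1.11 and -0.94 while GCD6 with 23 nt lies at -0.22 and 1.10.

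Pairs of leaders were also set against the input, again with the same input library in both comparisons. A different scaling by length in that library would enter these differences, and this was not tested. Of the 7 pairs 5 passed for 80S against input, where 50.1% of all pairs did, and 5 for untranslated against input, where 51.9% did. For SUI3 the difference between the 66 nt and the 43 nt RNA was -2.33 on the log2 scale for 80S against input (limma, adjusted p = 0.00387) and -1.97 for untranslated against input (0.00935). For TIF5 the values of the 107 nt minus the 83 nt RNA were 1.87 (limma, adjusted p = 0.00870) and 1.62 (0.0186), and for GCD11 those of the 58 nt minus the 34 nt RNA were 1.07 (0.0156) and 0.98 (0.0260). In these genes the shares in the input lay outside those of the other libraries. The 66 nt RNA of SUI3 was 69.9% of the gene's FPKM in the input and 27.3% to 45.8% in the other libraries. The 51 nt and 39 nt RNAs of GCD6 did not pass for 80S against input (-0.28, limma, adjusted p = 0.454). They differed for untranslated RNA against input (-2.69, limma, adjusted p = 0.000685).

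Other genes of initiation were taken from 3 lists, and their RNAs were described by the same comparison of 80S with untranslated RNA. Among partners in the complex that scans for the start codon (eIF1, eIF1A, eIF3 and RLI1), 2 of 13 RNAs were higher and 6 lower, with a median log2 change of -0.72. Over all RNAs 38.6% were higher and 31.8% lower, with a median of 0.18, and these values are the background for each list. HCR1 with 49 nt, of eIF3, was lowest (-3.91, limma, adjusted p = 1.13e-05). TIF35 with 17 nt, another eIF3 subunit, was highest (0.77, limma, adjusted p = 0.0211). That call was lost without 80S replicate 1 or 2 (0.73 and 0.61, limma, adjusted p = 0.0671 and 0.0674) and after rescaling by median ratios (0.62, 0.0531). Without untranslated replicate 1 the value was 0.56. Among genes of cap binding and unwinding, 7 of 11 RNAs were higher and 3 lower, with a median of 1.02, and no test set the list against the pool. The higher ones include CAF20 with 25, 42 and 60 nt and TIF2 with 51 and 68 nt. RNAs of 1 gene are not independent. CAF20 with 25 nt, which binds the cap-binding factor, was highest (2.21, limma, adjusted p = 0.000201). EAP1 with 34 nt, which also binds that factor, was lowest (-1.37, limma, adjusted p = 0.000518).

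The last list held genes that supply or regulate eIF2 and its tRNA, among them the assembly factor CDC123 and YIH1, which restrains activation of the eIF2 kinase GCN2. Of its 15 RNAs 3 were higher and 5 lower, the latter near the background of 31.8%, with a median of -0.18. TMA20 with 23 nt, of a factor that acts on ribosomes after termination, was highest (2.39, limma, adjusted p = 6.24e-05). TMA64 with 38 nt, related in function, was lowest (-2.98, limma, adjusted p = 1.77e-05). The lists name 32 genes, of which 22 had RNAs in the table. The others, and with them GCN2 and GCN4, are not analysed here.

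The RNA that changed most, GCD1, was compared with every RNA of other genes by its level over the 6 libraries. The nearest by Euclidean distance in log2(FPKM + 1) were NUS1 with 25 nt (distance 0.64), FIT3 with 47 nt (0.79) and YPP1 with 37 nt (0.85). Their log2 changes between untranslated and 80S RNA were -2.83, -2.27 and -2.03. They were picked by their levels in these same libraries, so changes near that of GCD1 follow from the choice.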

How the data were processed

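The authors deposited 1 table of FPKM (fragments per length of RNA and per number of mapped reads) with a column for each of 6 libraries, per the file headers. The submitters' processing notes list STAR and cutadapt, with no version. Not given in the sources used here are the program behind FPKM, the genome build and how reads shared by RNAs of 1 gene were treated. Depth is unknown: whole steps showed among the lowest input values and not in the other libraries, so reads could not be recovered and no count test was run.

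Levels were tested as log2(FPKM + 1) with limma 3.58.1 (R 4.3.3, trend on) over all 6 libraries, with 95% intervals and Benjamini-Hochberg adjustment over all RNAs, and calls were made at an adjusted p under 0.05. A fold change is on this scale and understates that of low RNAs. The input has 1 library, whose variation was taken to equal that of the other groups. No filter on low values was used. Pairs of leaders were tested in the same way on their within-library difference. For a single value, an exact permutation test of 3 against 2 libraries cannot go below p = 0.1 (two-sided), so none was used.

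The number in each RNA's name was read as the length of its leader. Leaders were taken from RefSeq R64 and folded alone with ViennaRNA 2.7.2. Of the 6962 RNAs, 6860 received a sequence. Scripts ran in Python 3.11.15 with numpy 2.4.6, pandas 2.3.3 and matplotlib 3.10.9.

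Every RNA of the listed loci was described. For the other initiation genes, the highest and the lowest RNA of each list were named, and for the RNA with the largest absolute change, the 3 RNAs of other genes nearest to it over the 6 libraries. The members and the lists were chosen with earlier results of these data known. Alternatives were other pseudocounts, a filter on low values, rescaling by median ratios, no trend, leaving out each replicate, a fit without the input, a replicate block, pairs of the longest and shortest leader only, sums per gene and pairs against the input.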

Additional observations from a re-analysis of the deposited data

How the results depend on the processing

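Leaving out each 80S replicate in turn gave 3 to 6 RNAs higher and 4 lower in 80S than in untranslated RNA. For 80S against input it gave 5 and 4. It gave 3 to 4 pairs of leaders with the longer one higher and 0 with it lower. Leaving out an untranslated replicate leaves 1 such library, which shows no spread of its own, so its counts of calls are not given. The 3 higher RNAs came without 80S replicate 1. Rescaling by median ratios left 1 RNA lower in untranslated RNA than in the input. Sums per gene, chosen after seeing the data, gave 3 higher and 3 lower among fewer units. With the longest and shortest leaders only, 2 pairs were called, as fewer pairs were tested. Signs turned for GCN3 87 nt (-0.104 after rescaling, -0.0320 to 0.184 over the replicates left out), GCD7 (0.17 without untranslated replicate 1, range from -0.92 over the replicates left out), FUN12 and GCD6 23 nt in 80S against input (0.0793 and 0.0238 after rescaling) and GCD11 58 nt and SUI2 in untranslated RNA against input (0.28 and 0.27 after rescaling). Among pairs they turned for GCD11 (-0.00074 with a pseudocount of 100, and -0.0627 without untranslated replicate 1 to 0.239 without replicate 2), and also without that replicate for SUI3 (0.15, against -0.88 without replicate 2) and TIF5 (-0.30, against 0.81). With the input as reference, also chosen after seeing the data, GCD6 51 against 39 nt gave -0.28 in 80S. In untranslated RNA GCD6 51 against 23 nt gave -2.04, 51 against 39 nt -2.69 and GCN3 -0.26. The change between 80S and untranslated RNA is the 80S value against input minus the untranslated one. Negative values in untranslated RNA therefore add to that change and do not reverse it. Why the other signs turned was not tested. Over the 15 RNAs and 12 alternatives for 80S against untranslated RNA, direction and side of the threshold held in 159 of 180 cases, while a call was lost in 13 and gained in 2 and the sign turned in 6. The filter on low values removed 0 RNAs, so its 15 cases repeat the main fit and could not differ. The fits with 1 untranslated library left are also among these cases.

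The fit with the replicate block called 5 RNAs higher and 5 lower and 4 pairs higher and 0 lower. GCN3 87 nt was -0.0225 there, and GCD11 58 nt was no longer called (log2 0.65, limma, adjusted p = 0.0721). Deviations from group means correlated at 0.0864 for replicate 1 and 0.530 for replicate 2, and untranslated replicate 1 correlated best with 80S replicate 3 (0.551). The 2 untranslated libraries deviate from their mean by equal amounts of opposite sign. Each correlation with 1 of them is therefore the negative of that with the other, and these values cannot decide on pairing. With only 2 such pairs the numbers were not taken as pairing the libraries. Unknown depth limits what can be said of low RNAs such as GCD6 39 nt in the input.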
